A study of Mus musculus with 12 samples.

Results

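Clade B serpins are serine protease inhibitors that lack a classical secretion signal and act mostly inside cells. The 10 genes described here are Serpinb1a, Serpinb6a, Serpinb6b, Serpinb6c, Serpinb8, Serpinb9, Serpinb9b, Serpinb9d, Serpinb9e and Serpinb9g, and they were taken by symbol from a table of 24391 genes after their levels in the 12 libraries had been seen. Their own levels and differences are therefore given as descriptions, with standard deviations (SD) and standard errors (SE) and with no test. Counts of members that passed a test stand only beside the shares of all genes, and nothing is read from them. Of the 10, 7 passed a filter on low counts, as did 17115 genes of the whole table, while Serpinb9d, Serpinb9e and Serpinb9g did not. Another 17 rows of the table carried clade B symbols.

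The RNA came from 4 female lines of mouse embryonic stem cells (mESC), derived by crossing C57BL/6J-129/SvJ with Mus musculus castaneus and all Rs26+/CreERT, which places a 4-hydroxytamoxifen (OHT)-dependent Cre at the Rosa26 locus. Lines 5.3 and 5.16 were Rif1+/+ and lines 15.10 and 16.9 were Rif1F/F, with Rif1 flanked by the sites that Cre recombines. RIF1 is a chromatin protein that acts in replication timing and in the repair of DNA breaks. One library per line was labelled as before deletion, with no OHT given. Another was made from mESC treated with OHT for 2 days, and a further one from embryoid bodies (EB) grown for 2 days from OHT-treated cells. The 6 groups of 2 libraries are called WT and F/F mESC before OHT, WT and KO mESC after OHT, and WT and KO EB. The WT lines received OHT and carried CreERT too, so both are shared by the genotypes. Replicate 1 is always line 5.3, replicate 2 line 5.16, replicate 3 line 15.10 and replicate 4 line 16.9. Whatever else differs between these pairs of lines cannot be told apart from Rif1 genotype, and the labels do not say whether lines of 1 genotype arose separately. Titles of the F/F libraries also carry the name KO; their bracketed part and the absence of OHT gave the undeleted reading. In the description labels, all libraries of a condition, of both genotypes, begin with 1 code that the other conditions lack; what it names is not stated, and effects of condition cannot be told apart from whatever it marks.

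Serpins inhibit by presenting a reactive-centre loop that the protease cleaves and is then trapped on. Serpinb1a and the human protein SERPINB1 inhibit the neutrophil proteases elastase, cathepsin G and proteinase 3. Serpinb9 inhibits granzyme B, the cell-death protease of killer lymphocytes, and has been studied in mESC as a guard against them. The gene cluster on mouse chromosome 13 holds several Serpinb1, Serpinb6 and Serpinb9 copies, each group matching a single gene in humans. Some of the Serpinb9 copies are known from the placenta.

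Rif1 itself, the targeted gene, read 1510 and 1440 CPM (read counts scaled to the library's total) in WT mESC after OHT and 719 and 654 CPM in KO mESC, and 1350 and 1310 CPM in WT EB against 806 and 861 CPM in KO EB. It was lower in KO by 1.17 on the log2 scale in mESC (edgeR quasi-likelihood test, adjusted p = 4.4e-09) and already lower in F/F before OHT (log2 fold change -0.49, edgeR adjusted p = 7.4e-05). Counts cover the whole transcript, and the part outside the floxed region can still be read after deletion. Total counts ran from 28600870 to 64808897 per library. WT mESC replicate 1 stood apart, with 8690 CPM of Lars2 against 147 to 1400 CPM in the other libraries. The pluripotency markers Pou5f1, Nanog and Sox2 were present in every library, and the summed level of 8 such markers was 4850 to 6320 CPM in mESC and 1570 to 1850 CPM in EB. Before OHT it was 4850 to 5110 CPM in WT and 6030 to 6320 CPM in F/F.

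Of the 10 members, 9 lie in 1 cluster on chromosome 13 and Serpinb8 lies on chromosome 1. In a GRCm38 annotation the chromosome 13 cluster runs, in order, Serpinb1a, Serpinb1c, Serpinb6b, Serpinb9, Serpinb9b, Serpinb1b, Serpinb9c, Serpinb9d, Serpinb9e, Serpinb9f, Serpinb9h, Serpinb9g, Serpinb6d, Serpinb6e, Serpinb6c and Serpinb6a. Serpinb1a thus lies at one end of the cluster and Serpinb6c and Serpinb6a at the other.

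Promoter windows of 9 members, 250 bases before to 50 bases after the annotated start, were available from RefSeq (GRCm38.p6), and those of 7 members are printed 5′ to 3′ on the gene's own strand. They are shown to set side by side the members with the most reads (Serpinb6a and Serpinb6c), the related pair Serpinb9 and Serpinb9b, and the 3 nearly silent copies of the same group. Capitals mark matches, on either strand, to the GC box GGGCGG and to the TATA box, which was searched as TATAAA. The CCAAT box and the core of the cAMP response element, searched as TGACGT, were marked too, and no motif was barred from overlapping another.
Serpinb6a, chr13:34002745-34003044, minus strand: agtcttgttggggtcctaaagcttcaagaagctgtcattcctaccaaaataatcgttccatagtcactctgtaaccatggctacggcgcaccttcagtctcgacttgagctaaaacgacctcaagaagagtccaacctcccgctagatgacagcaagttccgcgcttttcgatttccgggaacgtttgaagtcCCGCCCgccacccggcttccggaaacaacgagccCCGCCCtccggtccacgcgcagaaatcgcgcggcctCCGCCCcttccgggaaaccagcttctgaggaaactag
Serpinb6c, chr13:33905142-33905441, minus strand: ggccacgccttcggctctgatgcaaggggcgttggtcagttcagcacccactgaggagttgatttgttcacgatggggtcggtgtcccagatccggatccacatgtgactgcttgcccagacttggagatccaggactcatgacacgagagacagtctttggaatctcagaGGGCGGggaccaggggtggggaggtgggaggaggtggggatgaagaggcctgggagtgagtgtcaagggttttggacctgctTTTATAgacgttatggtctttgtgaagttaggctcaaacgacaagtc
Serpinb9, chr13:33004291-33004590, plus strand: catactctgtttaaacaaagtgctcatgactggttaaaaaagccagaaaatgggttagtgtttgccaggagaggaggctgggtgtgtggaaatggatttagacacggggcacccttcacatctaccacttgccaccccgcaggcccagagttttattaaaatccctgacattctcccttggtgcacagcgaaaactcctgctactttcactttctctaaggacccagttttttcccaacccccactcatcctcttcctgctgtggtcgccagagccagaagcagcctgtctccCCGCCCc
Serpinb9b, chr13:33027164-33027463, plus strand: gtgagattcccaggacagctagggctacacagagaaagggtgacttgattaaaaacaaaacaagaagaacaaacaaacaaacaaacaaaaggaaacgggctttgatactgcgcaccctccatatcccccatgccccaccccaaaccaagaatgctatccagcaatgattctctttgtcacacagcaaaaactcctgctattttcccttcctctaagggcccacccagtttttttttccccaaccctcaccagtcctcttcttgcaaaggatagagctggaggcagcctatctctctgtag
Serpinb9d, chr13:33192705-33193004, plus strand: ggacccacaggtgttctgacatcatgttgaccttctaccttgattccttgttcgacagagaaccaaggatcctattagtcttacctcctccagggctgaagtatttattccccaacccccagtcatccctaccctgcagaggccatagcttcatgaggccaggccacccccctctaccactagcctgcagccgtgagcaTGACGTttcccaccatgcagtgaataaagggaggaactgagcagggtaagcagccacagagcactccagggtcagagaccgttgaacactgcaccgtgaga
Serpinb9e, chr13:33249358-33249657, plus strand: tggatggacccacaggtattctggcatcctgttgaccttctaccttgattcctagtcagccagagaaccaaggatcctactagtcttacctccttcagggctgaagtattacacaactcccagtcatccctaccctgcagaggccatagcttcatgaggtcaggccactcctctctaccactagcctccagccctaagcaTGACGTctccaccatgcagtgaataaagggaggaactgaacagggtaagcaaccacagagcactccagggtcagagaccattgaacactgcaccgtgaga
Serpinb9g, chr13:33484540-33484839, plus strand: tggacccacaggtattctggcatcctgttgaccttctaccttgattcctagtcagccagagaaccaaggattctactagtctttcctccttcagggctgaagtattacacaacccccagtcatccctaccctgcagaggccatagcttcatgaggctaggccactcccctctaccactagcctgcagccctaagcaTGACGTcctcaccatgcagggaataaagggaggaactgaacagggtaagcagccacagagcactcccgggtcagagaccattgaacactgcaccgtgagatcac

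The window of Serpinb6a, the first of its 2 in the table, held 25 CpG and 3 GC boxes, against a median of 7 CpG over all 32817 windows. Its second window, not printed, held 5 CpG, 0 GC boxes and 1 CCAAT, and which start these cells use was not tested. The window of Serpinb6c held 10 CpG, 1 GC box and 1 TATA box. Serpinb9 and Serpinb9b, whose windows were 57.4% identical over the aligned columns, held 5 and 2 CpG, and Serpinb9 held 1 GC box. The windows of Serpinb9d, Serpinb9e and Serpinb9g were 89.2% to 93.4% identical to each other and each held 1 TGACGT. Of all windows, 35.6% held a GC box, 13.6% a TATA box, 37.4% a CCAAT and 7.51% a TGACGT. The same 6 letters also stood in a window of the neighbouring Serpinb9c and in that of Serpinb9f. A match is only a match of letters.

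Per kilobase of annotated exon, Serpinb6c and Serpinb6a were the most abundant members in all 6 groups. In WT mESC before OHT the mean levels were 70.7 CPM per kb for Serpinb6c, 14 for Serpinb6a, 2.17 for Serpinb1a, 0.959 for Serpinb9b, 0.462 for Serpinb6b, 0.395 for Serpinb9 and 0.0686 for Serpinb8. Neighbours in this order did not overlap between their 2 libraries, and the order was the same in F/F mESC before OHT. After OHT Serpinb9 stood above Serpinb6b in both genotypes, although the libraries of these genes overlapped in KO mESC. In WT EB, Serpinb6a led with 10.6 CPM per kb, Serpinb6c followed with 9.59, and Serpinb1a had dropped below Serpinb9b and Serpinb9 to 0.132, where it overlapped Serpinb6b. KO EB had Serpinb6c in front at 21.1 CPM per kb, then Serpinb6a at 13.6, Serpinb9b at 3.40, Serpinb9 at 0.894 and Serpinb1a at 0.715.

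**Figure D1:**
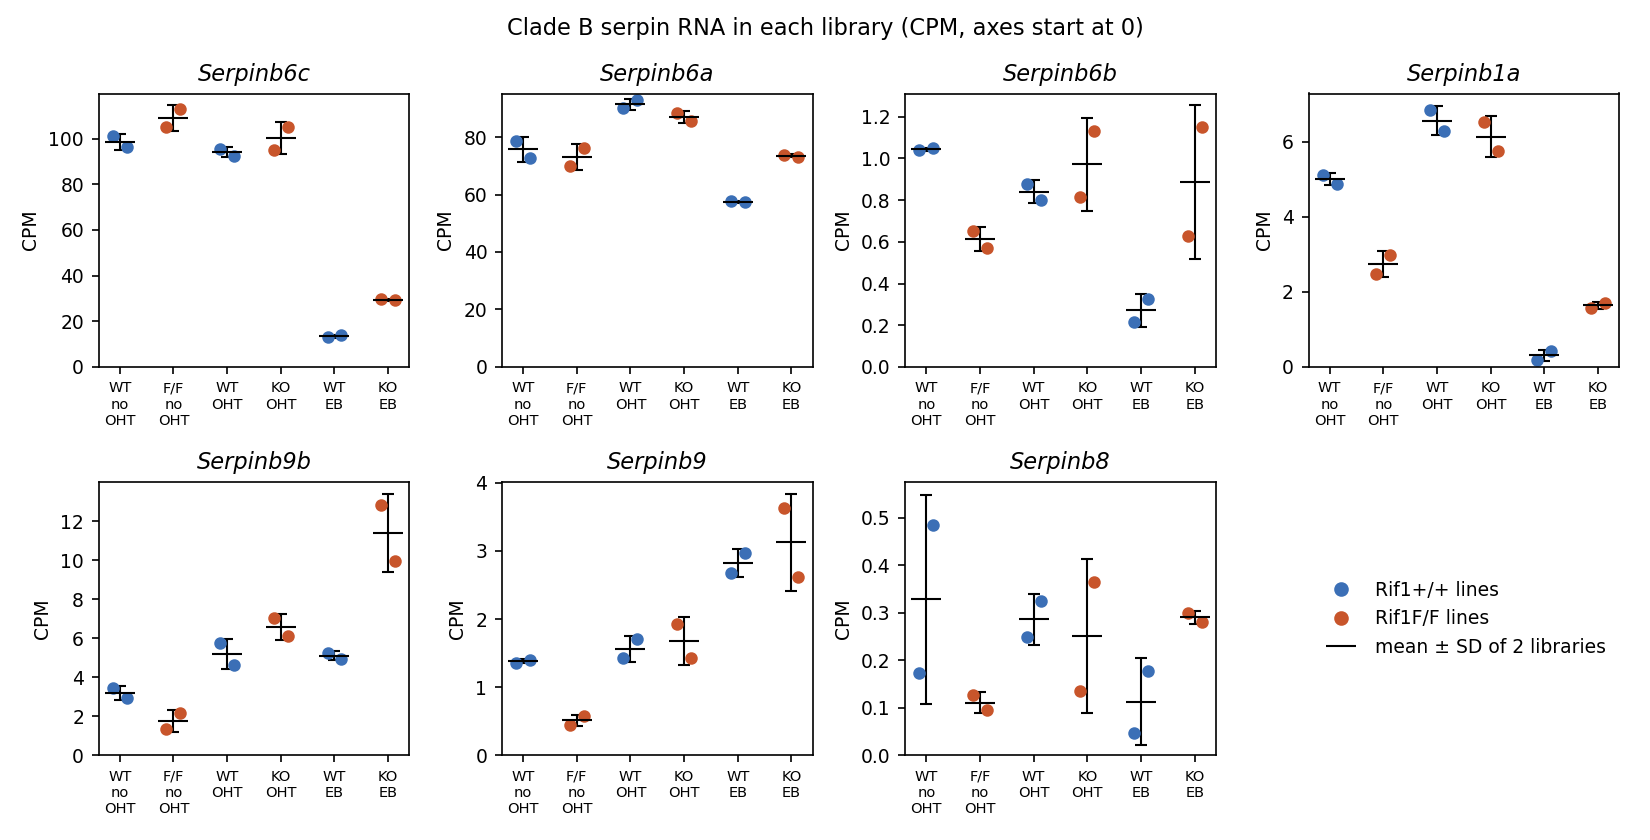
CPM of the 7 members that passed the low-count filter, by group (x axis; F/F is Rif1F/F before OHT, KO after it), with 1 point per library and the mean ± SD of 2 libraries. Serpinb6c and Serpinb1a sit low in WT EB and higher in KO EB, Serpinb9 and Serpinb9b are lowest in F/F mESC before OHT, and Serpinb8 stays under 0.5 CPM everywhere.

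In EB, Serpinb1a, Serpinb6b, Serpinb6c and Serpinb9b were about 2 to 5 times higher in KO than in WT, whereas Serpinb9 overlapped between the groups. The libraries of KO and WT EB did not overlap for Serpinb1a, Serpinb6a, Serpinb6b, Serpinb6c, Serpinb8 and Serpinb9b, and each was higher in KO. Of all genes tested, 73.6% did not overlap in either direction and 41.7% were higher in KO without overlap. By the edgeR quasi-likelihood test with Benjamini-Hochberg adjustment at 0.05, 40.4% of all genes tested passed in this comparison, 20.7% upward and 19.7% downward. Among the 7 members tested, 5 passed upward and 0 downward; the members were chosen on these values, so nothing is read from that count. Their median log2 fold change was 1.10, against -0.02 over all genes tested.

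Serpinb1a read 0.416 and 0.191 CPM in WT EB and 1.58 and 1.71 CPM in KO EB. Both KO libraries stood above both WT libraries, and the WT libraries held 22 counts together. The log2 fold change was 2.41 ± 0.31 (SE), and it was 3.03 without WT EB replicate 1. Serpinb6c, for which no target protease is named here, read 13.8 and 12.9 CPM in WT EB and 29.6 and 29.1 CPM in KO EB, a log2 fold change of 1.08 ± 0.09. Replicates lay close together in both groups, and leaving out any 1 library kept the value between 1.04 and 1.14. Serpinb6a, the mouse counterpart of the cathepsin G inhibitor SERPINB6, read 57.3 and 57.7 CPM in WT EB and 73.8 and 73.1 CPM in KO EB. Its log2 fold change of 0.29 ± 0.07 was the smallest among the members whose KO and WT EB libraries did not overlap.

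Serpinb6b, an inhibitor of granzyme A, read 0.327 and 0.215 CPM in WT EB and 0.627 and 1.15 CPM in KO EB. The KO libraries differed from each other by more than the WT libraries did, and the log2 fold change was 1.64 ± 0.41. Serpinb9b, an inhibitor of granzyme M, read 4.96 and 5.26 CPM in WT EB and 12.8 and 9.96 CPM in KO EB, with a log2 fold change of 1.10 ± 0.18. Both KO libraries were about 2 times the WT level. Serpinb9 read 2.97 and 2.68 CPM in WT EB and 3.63 and 2.62 CPM in KO EB. Its libraries overlapped, with a log2 fold change of 0.10 ± 0.22. Serpinb8, whose human counterpart inhibits furin, read 0.178 and 0.0478 CPM in WT EB and 0.300 and 0.280 CPM in KO EB. Its log2 fold change of 1.36 ± 0.73 became 2.48 without WT EB replicate 1 and 0.65 without WT EB replicate 2.

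In these bulk samples, a change in the share of cells of a type and a change in RNA per cell cannot be told apart. Of 16 two-cell-like markers, 14 were in the table, and 2 of these, Tcstv1 and Tcstv3, were at 0 in every library. Their summed level was 14 to 17.2 CPM in WT EB and 381 to 429 CPM in KO EB, and 9.96 to 10.6 CPM in KO mESC. All 14 trophoblast markers were in the table, and they summed to 100 to 104 CPM in WT EB and 123 to 130 CPM in KO EB, where Tpbpa and Prl3d1 held at most 1 count. Single markers of this set moved both ways. Tfap2c read 16 and 16 CPM in WT EB and 45.2 and 44.6 CPM in KO EB, and Gata2 0.802 and 0.788 against 3.85 and 4.27 CPM. Gata3 read 0.327 and 0.358 against 5.32 and 5.14 CPM, and was already higher in F/F before OHT. Krt18 was lower in KO EB, at 27.9 and 25.8 CPM against 42.8 and 43.9 CPM. The 5 epiblast markers, at 121 to 222 CPM in mESC, summed to 1640 to 1650 CPM in WT EB and to 1040 CPM in both KO EB libraries, and the 8 pluripotency markers to 1570 to 1640 CPM and 1720 to 1850 CPM. The part of these marker sets in the serpin differences was not tested.

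**Figure D2:**
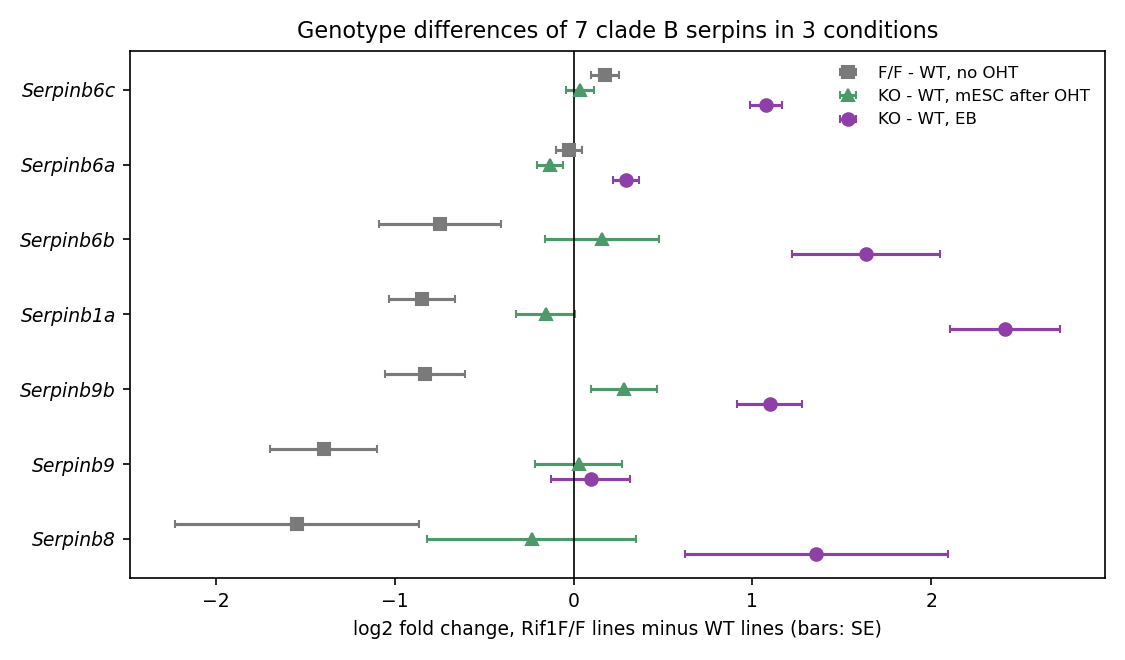
Fitted log2 fold change of Rif1F/F lines minus WT lines for 7 members (y axis) before OHT, after OHT and in EB, with SE bars. Values lie near 0 after OHT, mostly below 0 before OHT and above 0 in EB, where that of Serpinb9 lies within its SE of 0.

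After OHT the log2 fold changes of KO against WT ranged from -0.23 ± 0.59 for Serpinb8 to 0.28 ± 0.18 for Serpinb9b. Of all genes tested, 38.4% passed in this comparison, 19.8% upward and 18.6% downward, and of the 7 members 0 passed by edgeR and 0 by DESeq2. These counts also rest on values that chose the members, so nothing is read from them. Serpinb6c read 92.5 and 95.5 CPM in WT mESC and 95.1 and 105 CPM in KO mESC, and Serpinb1a read 6.30 and 6.84 CPM against 6.54 and 5.75 CPM. Both genes overlapped between the groups. Serpinb6a read 92.8 and 90.1 CPM in WT and 88.4 and 85.6 CPM in KO, without overlap (log2 fold change -0.13 ± 0.07). Serpinb9b read 4.63 and 5.75 CPM in WT and 7.05 and 6.09 CPM in KO, also without overlap. Without WT mESC replicate 1, the library that stood apart, the log2 fold change was 0.07 for Serpinb6c, -0.16 for Serpinb1a and 0.18 for Serpinb9b. For Serpinb8 it was 0.04 without that library and -1.16 without KO mESC replicate 4.

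Before OHT, several members were lower in the F/F lines. Rif1 RNA was lower there too (log2 fold change -0.49), and whether any deletion had occurred without OHT was not tested. Serpinb9 read 1.40 and 1.36 CPM in WT and 0.452 and 0.571 CPM in F/F, a log2 fold change of -1.40 ± 0.30. Both F/F libraries were below 0.6 CPM and both WT libraries above 1.3 CPM. Serpinb1a read 4.89 and 5.12 CPM in WT and 2.49 and 2.98 CPM in F/F (log2 fold change -0.85 ± 0.18). Serpinb9b read 2.96 and 3.47 CPM in WT and 1.36 and 2.17 CPM in F/F (log2 fold change -0.83 ± 0.22). Serpinb6b followed the same order, with 1.05 and 1.04 CPM in WT and 0.653 and 0.571 CPM in F/F. Serpinb6a, at 72.6 and 78.8 CPM in WT and 69.9 and 76.3 CPM in F/F, overlapped. Serpinb6c was slightly higher in F/F, with 105 and 113 CPM against 96.1 and 101 CPM. Serpinb8 held 0.484 and 0.173 CPM in WT and 0.126 and 0.0952 CPM in F/F, and its log2 fold change of -1.55 ± 0.68 was -0.61 without WT replicate 1. Of all genes tested, 37.4% passed in this comparison, 19.9% upward and 17.5% downward, and of the 7 members 3 passed downward and 0 upward. The members were chosen on these values too, so nothing is read from that count. Without F/F replicate 3, 2 passed downward and 1 upward.

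Since the same F/F lines stood lower before OHT, the change within each line is given beside the comparison of genotypes. From before to after OHT, Serpinb9 changed by 0.27 and 0.07 (log2 CPM) in the WT lines 5.3 and 5.16, and by 2.07 and 1.31 in the Rif1F/F lines 15.10 and 16.9. Serpinb9b changed by 0.64 and 0.72 in the WT lines and by 2.37 and 1.49 in the Rif1F/F lines. Both genes were higher after OHT in all 4 lines, with larger steps in the Rif1F/F lines. Serpinb1a followed with 0.36 and 0.42 against 1.39 and 0.95. Serpinb6a was also higher after OHT in all 4 lines, by fitted log2 fold changes of 0.36 ± 0.07 in WT and 0.25 ± 0.07 in Rif1F/F lines. Serpinb6c hardly moved, with fitted log2 fold changes of 0.02 ± 0.08 in WT and -0.12 ± 0.08 in Rif1F/F lines. Serpinb6b went opposite ways, at -0.39 and -0.25 in the WT lines and 0.32 and 0.97 in the Rif1F/F lines.

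Of all genes tested, 49.1% passed after against before OHT in the WT lines (24.9% upward, 24.2% downward) and 43.7% in the Rif1F/F lines (22.1% upward, 21.5% downward). Of the 7 members, 3 passed upward and 0 downward in WT lines, and 4 upward and 0 downward in Rif1F/F lines. Nothing is read from these counts, since the members were chosen on these values. These contrasts share libraries with the genotype comparisons above. Condition and label code also coincide here.

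**Figure D3:**
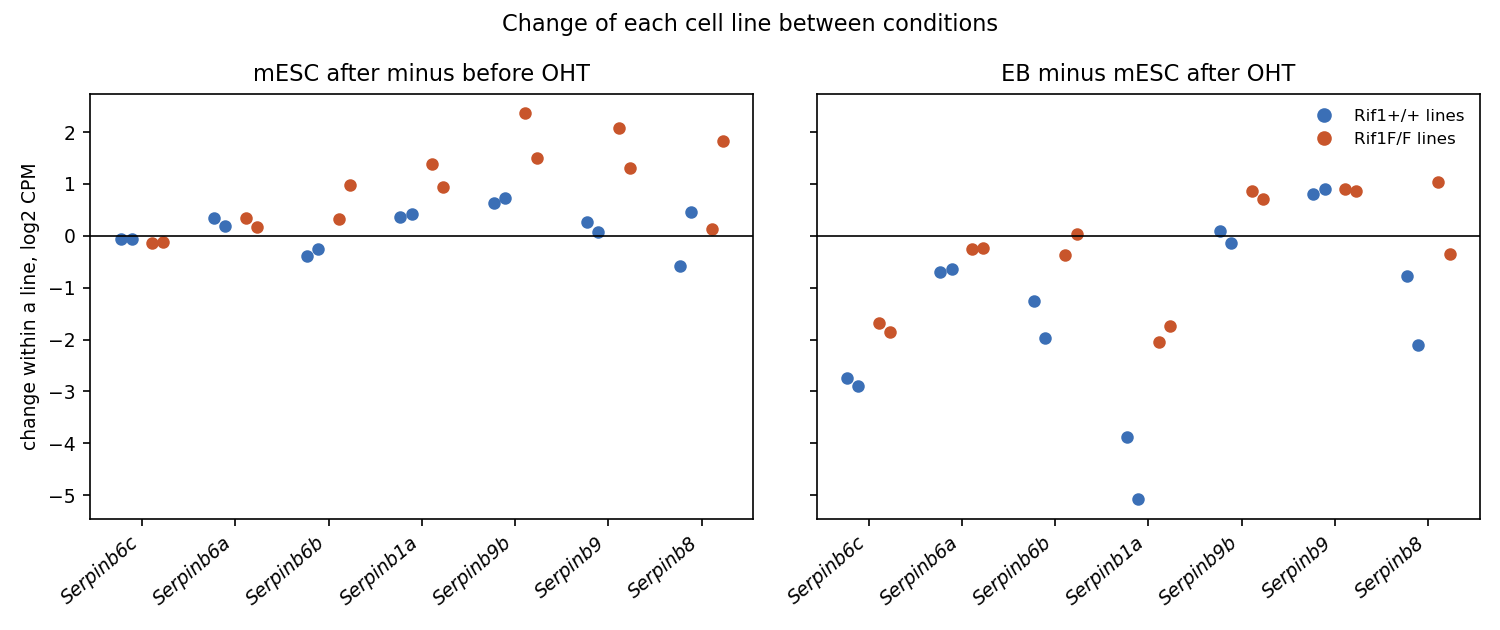
Change of each cell line in log2 CPM (y axis) for 7 members, from before to after OHT (left panel) and from mESC after OHT to EB (right panel), with 1 point per line. For Serpinb9, the Rif1F/F lines changed more than the WT lines in the left panel and all 4 lines changed alike in the right one, and Serpinb6c and Serpinb1a dropped more in the WT lines.

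When mESC were turned into EB, members of the cluster went different ways. In WT, Serpinb1a was at 6.30 and 6.84 CPM in mESC and 0.416 and 0.191 CPM in EB, a log2 fold change of -4.49 ± 0.25 that was -5.13 without WT EB replicate 1. Serpinb6c was lower in EB by a log2 fold change of -2.83 ± 0.09, from 92.5 and 95.5 CPM to 13.8 and 12.9 CPM. Serpinb6a, at 92.8 and 90.1 CPM in mESC, differed by -0.69 ± 0.07. Serpinb9 was higher in EB, at 2.97 and 2.68 CPM against 1.70 and 1.43 CPM, and Serpinb9b, at 4.63 and 5.75 CPM in mESC, overlapped between the groups.

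In KO, the differences had the same sign for Serpinb1a, Serpinb6c and Serpinb6a but were smaller. The log2 fold change of EB against mESC was -1.92 ± 0.20 for Serpinb1a, -1.79 ± 0.08 for Serpinb6c and -0.26 ± 0.07 for Serpinb6a. Per line, Serpinb1a changed by -3.87 and -5.08 in the WT lines and by -2.04 and -1.74 in the Rif1F/F lines. Serpinb6c changed by -2.74 and -2.89 against -1.68 and -1.86. Serpinb9 changed by 0.81 and 0.90 in the WT lines and by 0.90 and 0.87 in the Rif1F/F lines, so that all 4 lines lay within 0.1 of each other. Serpinb9b changed by 0.10 and -0.13 in the WT lines and by 0.86 and 0.71 in the Rif1F/F lines, from 7.05 and 6.09 CPM in KO mESC.

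Of all genes tested, 62.3% passed between EB and mESC in WT (32.5% upward, 29.8% downward) and 59% in KO (31.4% upward, 27.6% downward). Among the 7 members, 1 passed upward and 4 downward in WT, and 2 upward and 3 downward in KO. Without KO mESC replicate 4, 1 passed upward in KO. These contrasts share the EB libraries with the comparison of KO and WT EB, and the label code changes together with condition. The members were chosen on these values as well, so nothing is read from their counts.

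Across the 12 libraries the 7 members fell into patterns that can be described by correlation of log2 CPM, without a p because libraries of 1 condition share a label code. Serpinb1a and Serpinb6c correlated at 0.92 and Serpinb9 and Serpinb9b at 0.88, while Serpinb6c and Serpinb9 correlated at -0.73. The genes with the most similar patterns over the 12 libraries were Slc2a3 for Serpinb6c (Pearson r 0.998, Spearman rho 0.958), Cblb for Serpinb1a (0.983 and 0.958), Myh3 for Serpinb9 (0.980 and 0.944) and Zc4h2 for Serpinb9b (0.972 and 0.986). For Serpinb6a it was Dnajc21 (0.973 and 0.944), and for Serpinb6b St8sia6 (0.949 and 0.902). Serpinb8, with 2 to 21 counts per library, had no gene above 0.793, which was that of Popdc3.

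The placental copies Serpinb9d, Serpinb9e and Serpinb9g were close to silent. Serpinb9d held 3 counts in all 12 libraries together, 1 in WT EB replicate 1 and 2 in KO EB replicate 4. Serpinb9e held 22 counts, of which 18 were in KO EB replicate 4 and 0 in KO EB replicate 3. Serpinb9g held 8 counts, 6 and 1 of them in the KO EB libraries and 1 in WT EB replicate 1. Apart from 1 count of Serpinb9e in WT mESC replicate 2, reads of all 3 came from EB. No group difference can be drawn from such counts, and a count of 0 allows up to 3 counts, or 0.0463 to 0.105 CPM depending on the library. Their exons also shared 28.4% to 54.8% of 50-base words with other genes, Serpinb9e with Serpinb9f among them, so reads of the copies may have been split or lost in counting. For the members with many reads this share was 25.1% for Serpinb6a (12.5% with the adjoining Nqo2), 9.92% for Serpinb6c, 5.38% for Serpinb9b and 2.81% for Serpinb1a.

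**Figure D4:**
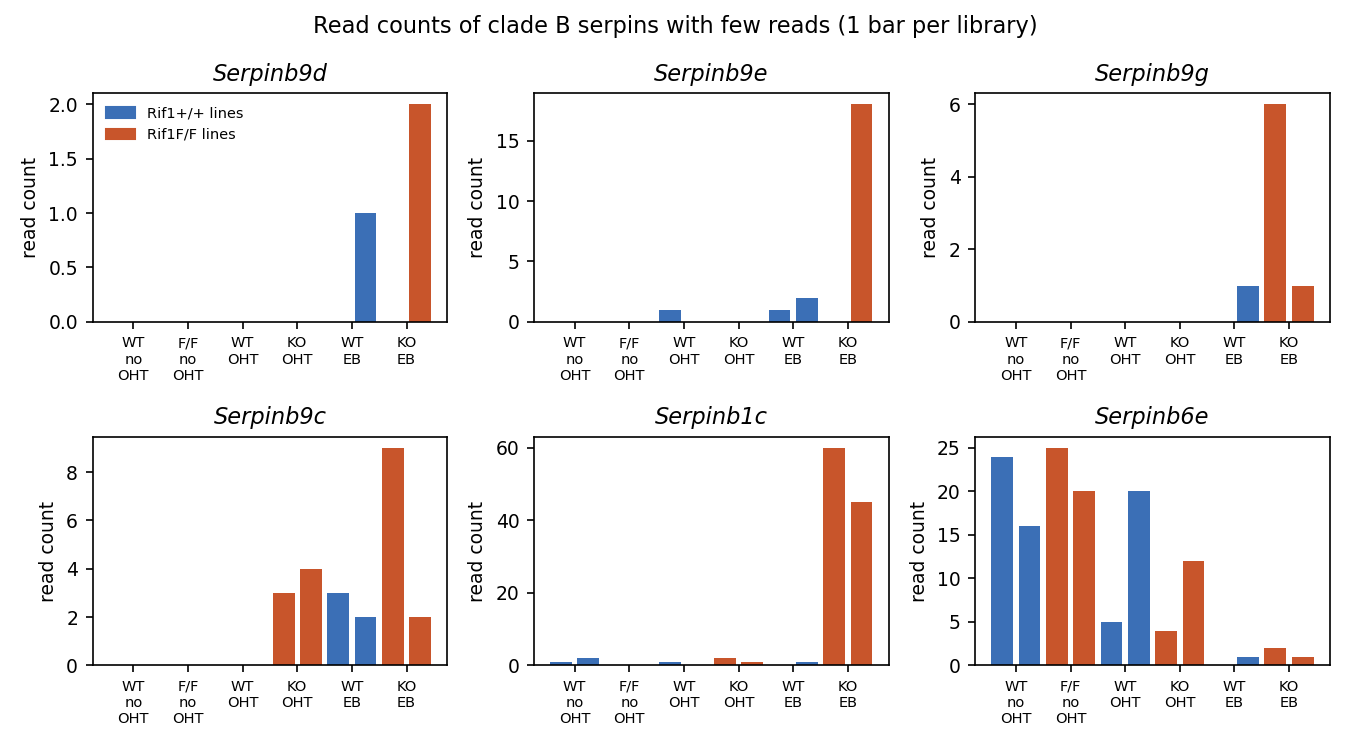
Read counts per library (1 bar each, y axis from 0) of Serpinb9d, Serpinb9e, Serpinb9g and the non-members Serpinb9c, Serpinb1c and Serpinb6e, by group. Serpinb1c holds 60 and 45 counts in KO EB and at most 2 in every other library, and 18 of the 22 counts of Serpinb9e are in 1 KO EB library.

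The neighbour Serpinb1c, a paralog of Serpinb1a that is no member, had nearly all its reads in KO EB. It held 60 and 45 counts (1.64 and 1.57 CPM) in KO EB, 1 and 0 counts in WT EB, and at most 2 in every other library. It passed the low-count filter only through the KO EB libraries, so its calls by edgeR against WT EB and against KO mESC are not used as support. The ratio per total count was 121, with an exact 95% interval of 21.3 to 4.84e+03 that covers counting error only. Against KO mESC the ratio was 33.4 (11.1 to 165). Serpinb1c shared 2.75% of its 50-base words with Serpinb1a. Of the 17 other clade B rows, 7 had no count in any library and 3 passed the low-count filter. Serpinb5 held 2 and 2 counts in KO mESC and 17 and 16 in KO EB. In WT it held 3 and 3 counts in mESC and 15 and 5 in EB. It passed the low-count filter only through EB libraries, so its calls by edgeR are not used as support either. Serpinb6e held 20 and 5 counts in WT mESC, 1 and 0 in WT EB, 4 and 12 in KO mESC and 2 and 1 in KO EB. It passed the low-count filter only through mESC libraries, so its calls below are not used as support. Its edgeR adjusted p of EB against mESC was 0.0079 in WT, which became 0.12 without WT mESC replicate 1 and 0.091 without WT EB replicate 2. In KO it was 0.038, which became 0.05, just past the threshold, with cell line as a block and 0.35 without KO mESC replicate 4.

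Serpins of other clades were counted to set the family in context. Of 36 rows 17 were tested. In EB 7 of them were higher and 0 lower in KO, beside 20.7% and 19.7% of all genes tested. In mESC after OHT 4 were higher and 5 lower (19.8% and 18.6% of all genes), and before OHT 4 were higher and 6 lower (19.9% and 17.5%). Without KO mESC replicate 3 or 4, 3 were lower in mESC. Serpina3m, of the secreted antichymotrypsin-like serpins, read 33.5 ± 2.53 CPM in KO EB and 13.4 ± 0.91 CPM in WT EB (SD, n = 2 each). Its log2 fold change was 1.25 ± 0.13 (edgeR adjusted p = 7.9e-07). Serpina3h read 16.4 CPM in KO mESC and 0.544 CPM in WT mESC after OHT (log2 fold change 4.82 ± 0.22, edgeR adjusted p = 3.3e-11). It was already higher in F/F before OHT (2.94 ± 0.21, edgeR adjusted p = 1.2e-08). In EB it was lower but differed likewise, at 0.972 CPM in KO and 0.0387 CPM, very few reads, in WT (4.42 ± 0.545, edgeR adjusted p = 5.5e-06). Serpinh1, the collagen chaperone, was lower in the Rif1F/F lines before OHT (log2 fold change -0.83 ± 0.12, edgeR adjusted p = 4e-05) and after it (-0.70 ± 0.12, edgeR adjusted p = 0.00026), and higher in KO EB (0.56 ± 0.12, edgeR adjusted p = 0.0014).

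Most granzymes and neutrophil proteases that the members are known to inhibit had few reads. Gzma had 0 counts in every library, Gzmb at most 2 counts in a library, Elane at most 8, Prtn3 at most 7 and Ctsg at most 20. Gzmm, the target of Serpinb9b and named here after its values were seen, read 2.37 to 6.23 CPM. It fell from mESC to EB in KO (log2 fold change -0.81 ± 0.19, edgeR adjusted p = 0.0014). In WT that difference was -0.26 ± 0.18 (edgeR adjusted p = 0.22). Between KO and WT EB it was -0.39 ± 0.19 (edgeR adjusted p = 0.12). A relation of Gzmm with Serpinb9b was not tested. Lymphocyte and natural killer cell markers, all 10 in the table, summed to 3.46 to 12.8 CPM, with Nkg7 at no more than 5 counts. Within this set Cd3e read 1.61 to 6.21 CPM and Cd4 0.545 to 4.97 CPM, and Klrb1c reached 114 counts in a library. The 9 myeloid markers summed to 10.5 to 33.1 CPM, of which Cd68 alone read 6.5 to 32 CPM. Furin, by contrast, was well expressed. It read 65.4 and 57.1 CPM in WT and 78.9 and 72.5 CPM in F/F mESC before OHT, 39.6 and 55.6 CPM in WT and 77.1 and 87.5 CPM in KO mESC after OHT, and 31.6 and 33.3 CPM in WT and 44.0 and 41.0 CPM in KO EB. Its difference in mESC after OHT was 0.74 ± 0.11 (edgeR adjusted p = 6.6e-05). Before OHT it was 0.33 ± 0.11 (edgeR adjusted p = 0.029), which did not pass without F/F replicate 3 or 4 or WT replicate 2 (0.11, 0.067 and 0.21). Its difference in EB (log2 fold change 0.33 ± 0.12, edgeR adjusted p = 0.033) did not pass when any 1 of the 4 EB libraries was left out.

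Of 37 target and related proteases 24 were tested. In KO against WT, 10 were higher and 2 lower in mESC (19.8% and 18.6% of all genes), and 5 higher and 0 lower in EB, where the upward count is near the 20.7% of all genes. In F/F against WT before OHT 6 were higher and 3 lower (19.9% and 17.5%). Without KO mESC replicate 4, 6 were higher and 1 lower in mESC, and without WT replicate 1, 0 were lower before OHT. Ctsc, the peptidase that activates granzymes and neutrophil proteases, was higher in the Rif1F/F lines throughout. It read 12.6 and 12 CPM in WT EB and 32.3 and 31.6 CPM in KO EB (log2 fold change 1.32 ± 0.10, edgeR adjusted p = 9.1e-09). The log2 fold change was 1.55 ± 0.09 in mESC after OHT (edgeR adjusted p = 1.3e-09). It was 0.93 ± 0.09 before OHT (edgeR adjusted p = 6.3e-07), so the lines already differed before OHT was given. The lysosomal protease Ctsl was higher in KO EB by 0.52 ± 0.07 on the log2 scale (edgeR adjusted p = 8.4e-06), and already higher in the Rif1F/F lines before OHT (0.36 ± 0.07, edgeR adjusted p = 0.00036). After OHT its difference was 0.24 ± 0.07 (edgeR adjusted p = 0.0078, and 0.06 without KO mESC replicate 4). From mESC to EB, 3 proteases rose and 8 fell in WT (32.5% and 29.8% of all genes), and 4 rose and 11 fell in KO (31.4% and 27.6%). The number that rose in WT was 1 without WT EB replicate 2 and 5 without WT mESC replicate 1, and in KO it was 2 when any 1 of the EB libraries, the KO mESC libraries or WT mESC replicate 1 was left out.

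The genes next to the cluster on chromosome 13 were counted in the same fit. Of the 5 nearest protein-coding genes on each side, 8 in all were tested, and in KO against WT EB 3 were higher (Wrnip1, Tubb2a and Tubb2b) and 0 lower, beside 20.7% and 19.7% of all genes tested. Their log2 fold changes were 0.33 ± 0.07, 0.32 ± 0.10 and 0.42 ± 0.09 (edgeR adjusted p = 0.0021, 0.016 and 0.00078), and Tubb2a did not pass without KO EB replicate 3 or 4 or WT EB replicate 1 (edgeR adjusted p = 0.099, 0.054 and 0.074). The median over the 8 neighbours was 0.17. Nqo2, which adjoins Serpinb6a, did not pass in EB (-0.13 ± 0.10, edgeR adjusted p = 0.33) and was lower in KO mESC (-0.38 ± 0.10, edgeR adjusted p = 0.0058). Before OHT, too, it was lower in F/F than in WT (-0.39 ± 0.10, edgeR adjusted p = 0.0045), a call that did not pass without F/F replicate 3 or WT replicate 1 (0.063 and 0.11). Around the chromosome 1 cluster that holds Serpinb8, 2 of 8 neighbours tested were higher in KO EB and 0 lower, against the same shares of all genes.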

How the data were processed

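RNA was measured in 12 libraries of 6 groups. The deposited values are raw whole-number counts of reads for each gene symbol. The submitters' processing notes name BWA, HTSeq, DESeq2 and mm9 but give neither roles nor versions. No source used here states whether counting used strand, so antisense reads may be mixed in. The members, lists and tests were chosen with earlier results of these data known. Named genes other than members were the up to 4 serpins and 4 proteases with the smallest adjusted p per comparison, the 5 neighbours on each side and the 3 most similar genes per member; some genes these rules name are not reported here.

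Counts were fitted in edgeR 4.0.16 (R 4.3.3) as 6 groups with TMM scaling and filterByExpr, which left 17115 of 24391 genes. The quasi-likelihood F test was adjusted by Benjamini-Hochberg at 0.05. DESeq2 1.42.0, RLE size factors, no filter, only the 2 groups compared, a cell-line block and leaving out each library were alternatives. Levels are CPM of each library's total, mean ± SD over 2 libraries. Changes within a line are differences of log2 CPM, and similarity used log2 CPM with a prior count of 2. For a count of 0 the floor was 3 counts in each library, and intervals and floors cover counting error only. Replicates are cell lines, and p-values measure only the spread between these libraries. Conditions of 1 genotype share their lines, so replicate numbers pair those samples, although deviations of the same line correlated at only -0.07 to 0.09 across genes; genotypes share no line. The annotation (GRCm38) differs from the authors' build and was used for gene order, length, shared words and promoters only. The fit was tested on simulated data.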

Additional observations from a re-analysis of the deposited data

Results flagged for a closer look

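Several genotype differences had opposite signs in 2 conditions, with the libraries of the groups apart both times. In each case the difference between the conditions was not tested. Groups of 2 libraries are often apart, as 73.6% of all genes tested did not overlap between KO and WT EB. The share of all genes apart in 2 conditions with opposite signs was not counted. From before OHT to EB, the difference of Rif1F/F and WT lines shifted by 3.26 on the log2 scale for Serpinb1a, 2.38 for Serpinb6b, 2.90 for Serpinb8 and 1.93 for Serpinb9b. That of Serpinb8 rests on few counts. Its difference was -0.61 before OHT without WT replicate 1, and 0.65 in EB without WT EB replicate 2. Serpinb9b shifted by 1.12 from before OHT to mESC after OHT, and Serpinb6a by 0.42 from mESC after OHT to EB. Serpinh1 shifted by 1.39 from before OHT to EB and by 1.26 from mESC after OHT to EB. For Serpinb6b, both WT lines were lower and both Rif1F/F lines higher after OHT than before, and the mean changes differed by 0.97 (log2 CPM), which was not tested.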

How the results depend on the processing

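Among differences that had passed, none of a member or a named gene changed sign when 1 processing choice was changed. Some that had not passed did change sign with 1 library left out. Serpinb8 in KO against WT mESC after OHT went from -0.23 to as high as 0.30, and Serpinb9 in KO against WT EB from 0.10 to as low as -0.17. With each library left out in turn, between 4125 (without KO mESC replicate 4) and 6729 genes passed in KO against WT mESC, against 6572 with all libraries; the cause was not tested. The other settings left the counts of genes passing in all 7 comparisons within 1.5 times. The cell-line block (pairing by line) gave 10490 genes for EB against mESC in WT and 9939 in KO, and 8183 in WT and 7231 in Rif1F/F lines for after against before OHT. It changed no count of members, and among the genes named it ended the calls of Serpinb6e in KO EB and in WT after OHT. DESeq2 called 2 members in place of 3 for WT after against before OHT. Serpinb8, with 2 to 21 counts per library, and Serpinb9d, Serpinb9e and Serpinb9g are limited by depth.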
